A study of Mus musculus with 30 samples.

Results

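The protein kinases and ubiquitin ligase subunits that set the lifetime of circadian clock proteins are described here as 5 genes, Csnk1d, Csnk1e, Btrc, Fbxw11 and Gsk3b, taken by name from a deposited table of 13575 genes. All 5 were in the table and all 5 passed the filter on low values. RNA had been sequenced from hearts of 2-month-old mice, trimmed of their atria and collected at ZT10, the tenth hour after lights on in zeitgeber time. There were 3 libraries labelled control, from mice with floxed Rev-erb alleles, and 3 labelled CM-RevDKO, in which both REV-ERB receptors, Rev-erba and Rev-erbb, were to be deleted in cardiomyocytes. The Cre is named, in the protocol of another assay of the series, as aMHC-Cre, which the cardiomyocyte alpha myosin heavy chain promoter drives, so other heart cells keep both genes by design. Whether the control animals carried Cre is not stated for the RNA libraries; if they did not, receptor loss and Cre expression cannot be told apart. The labels used here state neither sex nor strain of the animals used for RNA, nor whether each library came from 1 animal.

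The clock runs on delayed repression. BMAL1 and CLOCK activate the period and cryptochrome genes, and the PER and CRY proteins then return to the nucleus to repress their own activators. How long this takes depends on how fast PER is destroyed. Casein kinase 1 delta and epsilon, encoded by Csnk1d and Csnk1e, bind PER and phosphorylate it, and beta-TrCP, of which Btrc and Fbxw11 encode the pair of mammalian forms, recognises the phosphorylated site as the substrate receptor of an SCF ubiquitin ligase. Glycogen synthase kinase 3 beta, encoded by Gsk3b, phosphorylates several clock proteins, REV-ERBα among them, which it protects from breakdown. In the heart it is also known as a brake on growth that insulin signalling releases through AKT. These enzymes are controlled to a large extent by phosphorylation and binding, which RNA levels do not measure.

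None of the 5 genes passed the test between the groups. Csnk1e came closest: all 3 libraries labelled CM-RevDKO lay above all 3 controls, with a mean 1.30 times that of controls. Gsk3b lay lower in all 3 libraries labelled CM-RevDKO, with 1 of them far below the rest, and Fbxw11 varied widely within both groups. Csnk1d and Btrc had nearly the same mean in both groups. Over all 13256 genes tested, 2.5% passed (332 genes): 167 higher (1.26%) and 165 lower (1.24%), and 118 higher and 212 lower when libraries were scaled without the mitochondrially encoded genes. A share of 0 of 5 is near that background. For 2 of the 5 genes no value of either group fell within the range of the other, against 23.1% of all genes tested.

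The 250 bases before an annotated transcription start are shown for Csnk1e and Gsk3b, the members whose groups did not overlap, read 5′ to 3′ on the gene's strand from the RefSeq promoter table of GRCm38.p6, which is mm10. The Csnk1e window, chr15:79442144-79442393 on the minus strand, lies before the most upstream of 4 starts in that table, inside the gene's annotated span, and capitals mark GGGCGG, the GC box. The Gsk3b window, chr16:38088751-38089000 on the plus strand, ends at the base before the gene's start, and capitals mark CCAAT or its complement, the CCAAT box.
Csnk1e: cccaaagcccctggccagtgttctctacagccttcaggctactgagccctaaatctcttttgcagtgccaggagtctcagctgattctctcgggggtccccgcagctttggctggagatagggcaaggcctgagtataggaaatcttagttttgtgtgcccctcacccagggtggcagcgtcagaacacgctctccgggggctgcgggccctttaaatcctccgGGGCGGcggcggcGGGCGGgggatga
Gsk3b: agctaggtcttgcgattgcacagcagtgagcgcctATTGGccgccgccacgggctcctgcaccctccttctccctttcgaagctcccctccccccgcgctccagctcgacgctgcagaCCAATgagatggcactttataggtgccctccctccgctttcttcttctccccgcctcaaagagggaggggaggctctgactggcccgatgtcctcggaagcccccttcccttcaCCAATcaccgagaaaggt
The Csnk1e window held 2 GC boxes and the Gsk3b window 3 CCAAT boxes, on either strand and without overlap. Among 32851 windows of this length, 32.7% held a GC box and 33.8% a CCAAT box. Both strands were also searched for the E-box CACGTG, the ROR core motif AGGTCA, the D-box TTATGTAA and the cyclic AMP element TGACGTCA. None of these letters occurred in the 4 Csnk1e windows, in the Gsk3b window or in the 1 window of Fbxw11, where 6.02%, 14.0%, 0.819% and 1.55% of all windows held them. Each Csnk1e window overlaps another, and all lie between 79441819 and 79442393, so they are not 4 separate searches. The bases before the gene's annotated 5′ end, at 79455579, were not searched. Csnk1d and Btrc had no entry.

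Some facts of the libraries bear on what follows. Nr1d1, which encodes REV-ERBα, stood at 15.01 to 23.9 FPKM (a level scaled to transcript length and to sequencing depth) in controls and 47.4 to 55.6 FPKM in those labelled CM-RevDKO, and Nr1d2, which encodes REV-ERBβ, at 30.6 to 40.3 and 26.6 to 28.8 FPKM. The labels used here do not state which exons are deleted, so these gene-level values check nothing about the deletion, and every direction below rests on the labels. Cardiomyocyte markers (7 of 7 in the table) summed to 25181 to 27235 FPKM in controls and 24932 to 28012 FPKM in those labelled CM-RevDKO, with none at 0 in all libraries. None of the 7 passed the test, but a sum can hide moves of single members. Tnnt2, 1 of them, did not overlap between groups, at 4769 to 5095 and 5969 to 6535 FPKM. The others are not given singly here. In 4 libraries mt-Atp8 stood at 8032 to 9769 FPKM, while CM-RevDKO replicates 1 and 2 held 18989 and 19303 FPKM of it. The atrial transcripts Myl7, Myl4 and Sln summed to 62.2 to 113 FPKM in controls and to 660, 166 and 205 FPKM in CM-RevDKO replicates 1, 2 and 3. None of these 3 passed the test (limma, adjusted p = 0.186, 0.266 and 0.0892). They are part of 8 atrial markers listed, of which 1 passed, higher. The 8 summed to 227 to 310 FPKM in controls and to 787 to 1527 FPKM in those labelled CM-RevDKO. The count of 332 genes fell to between 120 and 213 without control replicate 1, 2 or 3 or without CM-RevDKO replicate 1 or 2.

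**Figure D1:**
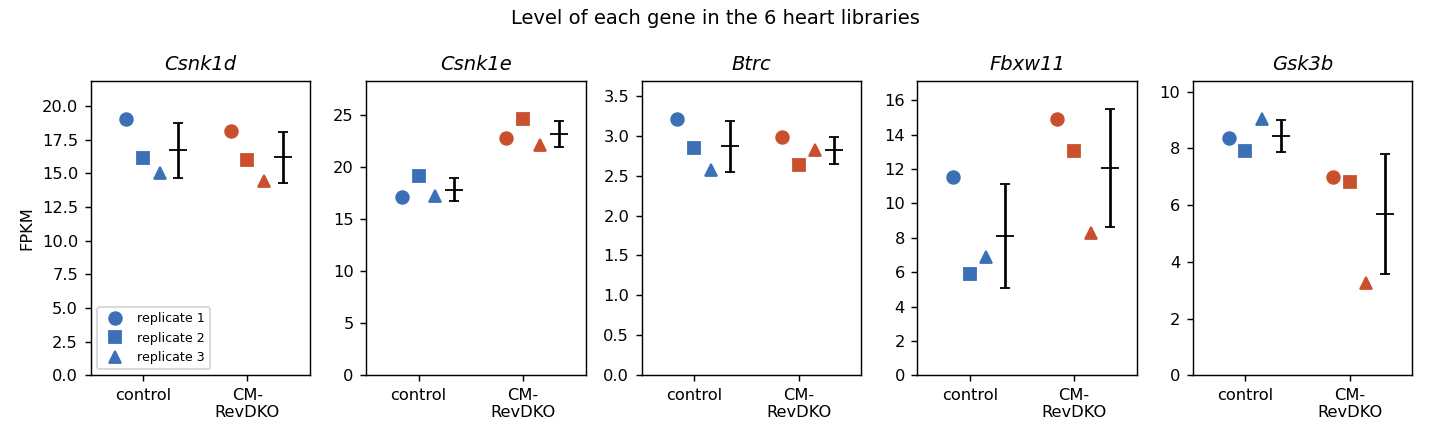
Level of Csnk1d, Csnk1e, Btrc, Fbxw11 and Gsk3b (FPKM, each axis from 0) in 3 libraries labelled control (blue) and 3 labelled CM-RevDKO (red), with the mean and SD in black; the symbol gives the replicate number. The groups do not overlap for Csnk1e (17.2 to 19.1 against 22.1 to 24.6 FPKM) and Gsk3b (7.92 to 9.02 against 3.26 to 7.01 FPKM), and overlap for the other 3 genes.

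Csnk1e encodes casein kinase 1 epsilon, the kinase in which the tau mutation of the hamster shortens the day (ENSMUSG00000022433, chromosome 15, 79417852 to 79455579, mm10). It stood at 17.2, 19.1 and 17.2 FPKM in control replicates 1, 2 and 3 and at 22.9, 24.6 and 22.1 FPKM in the libraries labelled CM-RevDKO. The lowest library labelled CM-RevDKO was thus above the highest control, and the spread inside each group was small: 17.8 ± 1.11 against 23.2 ± 1.26 FPKM (SD, n = 3). The difference on the scale of log2(FPKM + 1) was 0.36 (SE 0.09, 95% interval 0.15 to 0.58), which did not pass the test over all genes (limma, adjusted p = 0.103, unadjusted p = 0.00520). Of all genes tested, 16.6% had an unadjusted p under 0.05, and 12.6% lay without overlap in the same direction. Atrial transcripts were higher in all 3 libraries labelled CM-RevDKO than in any control. A covariate built from them thus goes with group and widens the SE. With the mean log2 level of Myl7, Myl4 and Sln as this covariate the difference was 0.45 (SE 0.15, adjusted p = 0.507). From CM-RevDKO replicate 3 alone, without the pair high in mt-Atp8, the difference was 0.30. In a bulk sample, more RNA per cell and more cells of a type that holds the transcript cannot be told apart. The lncRNA gene Gm16059 lies inside Csnk1e over 2799 bases, and no source used here says whether counting was strand-aware.

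Csnk1d encodes casein kinase 1 delta, the closest relative of CK1 epsilon and the kinase mutated in a human family with early sleep times (ENSMUSG00000025162, chromosome 11, 120957709 to 120991350). It stood at 19.0, 16.1 and 14.99 FPKM in the controls and at 18.1, 16.0 and 14.4 FPKM in the libraries labelled CM-RevDKO. The values interleave, and the means were 16.7 ± 2.06 and 16.2 ± 1.87 FPKM (SD, n = 3). The difference was -0.04 on the log2 scale (SE 0.13, 95% interval -0.34 to 0.25, adjusted p = 0.907). At 1 end of its span 1292 bases overlap Slc16a3, a lactate transporter gene that stood at 0.394 to 1.20 FPKM in the 6 libraries.

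The relation between the kinases was compared inside each library, where the scaling of the library cancels. Csnk1d stood at 1.11, 0.843 and 0.871 times the level of Csnk1e in control replicates 1, 2 and 3, and at 0.793, 0.651 and 0.650 times in the libraries labelled CM-RevDKO. All 3 of the latter lay below all 3 controls. Since Csnk1d alone differed by -0.04 and Csnk1e by 0.36, the ratio largely restates the difference of Csnk1e and is not a separate result. The mean log2 ratio was -0.10 ± 0.21 (SD, n = 3) in controls and -0.52 ± 0.17 (SD, n = 3) in those labelled CM-RevDKO, a difference of -0.42. By an exact two-sided permutation test this gave p = 0.10, the smallest that 3 against 3 allow, and 0.20 adjusted over the 3 ratios tested. The direction held with each library left out (-0.52 to -0.30). In controls Csnk1e and Csnk1d thus stood at levels that did not differ beyond their spread, with Csnk1e the higher in 2 of 3, while in the libraries labelled CM-RevDKO Csnk1e was the higher in all 3.

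**Figure D2:**
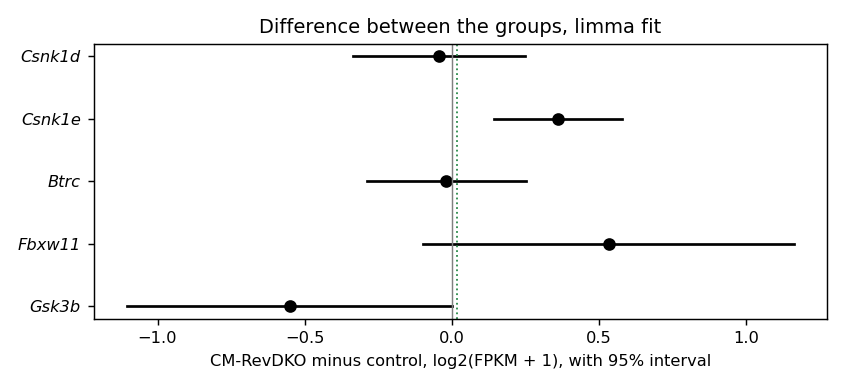
Difference between the groups on the scale of log2(FPKM + 1) for each of the 5 genes (dot), with its 95% interval from the limma fit (line); the dotted line is the median over all genes tested, 0.02. The interval of Csnk1e lies above 0 before adjustment over all genes, and those of the other 4 genes include 0.

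Btrc encodes beta-TrCP1 (ENSMUSG00000025217, chromosome 19, 45363688 to 45533343) and was the lowest of the 5 genes in every library. It stood at 3.20, 2.84 and 2.56 FPKM in the controls and at 2.98, 2.64 and 2.82 FPKM in the libraries labelled CM-RevDKO. The 3 values of the second group fell inside the range of the first. The difference was -0.02 on the log2 scale (SE 0.12, 95% interval -0.29 to 0.25, adjusted p = 0.962). RefSeq places a pair of pseudogenes inside the span of Btrc, over 1032 and 972 bases. The shorter, Gm6807, has its own row, at 3.68 to 5.52 FPKM in controls and at 19.3, 3.21 and 6.02 FPKM in the libraries labelled CM-RevDKO. Within that group Btrc too was highest in replicate 1, at 2.98 FPKM, but inside the control range. Sharing of reads between the pair was not tested.

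Fbxw11 encodes beta-TrCP2, which recognises the same phosphorylated motif (ENSMUSG00000020271, chromosome 11, 32642555 to 32746816). It stood at 11.5, 5.92 and 6.86 FPKM in the controls and at 14.9, 13.1 and 8.26 FPKM in the libraries labelled CM-RevDKO. Control replicate 1 was above CM-RevDKO replicate 3. Means were 8.11 ± 3.01 and 12.1 ± 3.42 FPKM (SD, n = 3). The difference was 0.53 on the log2 scale (SE 0.27, 95% interval -0.10 to 1.16, adjusted p = 0.378). It rested on CM-RevDKO replicates 1 and 2, since it was 0.76 without replicate 3 (adjusted p = 0.193) and 0.07 from replicate 3 alone (adjusted p = 0.975). With the atrial covariate it was 0.06 (SE 0.39, adjusted p = 0.985), and without control replicate 2 and CM-RevDKO replicate 1 it was 0.20. Marker sums of other cells also differed between libraries, not all in the same order. The 5 adipocyte markers in the table summed to 83.9, 47.0 and 11.7 FPKM in CM-RevDKO replicates 1, 2 and 3 and to 9.37 to 14.5 FPKM in controls. The other 2 adipocyte markers listed, Lep and Ucp1, had no value, and none of the 5 was at 0 in all libraries. Fabp4, counted with the endothelial markers, is also made by adipocytes. Endothelial markers (6 of 6) summed to 1222, 943 and 760 FPKM in CM-RevDKO replicates 1, 2 and 3 and to 851 to 1001 FPKM in controls. In the same order, fibroblast markers summed to 485, 396 and 382, and to 361 to 518 FPKM in controls. Macrophage markers summed to 265, 156 and 164, and to 169 to 186 FPKM. Smooth muscle and pericyte markers summed to 243, 220 and 233, and to 183 to 228 FPKM. B cell markers summed to 18.2, 12.8 and 8.43, and to 5.10 to 9.16 FPKM. Erythroid markers summed to 11003, 8867 and 8703, and to 5010 to 9005 FPKM. The part of these cells in the Fbxw11 values was not tested.

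Within each library Btrc was the lower of the beta-TrCP genes. The ratio of Btrc to Fbxw11 was 0.277, 0.480 and 0.374 in control replicates 1, 2 and 3, and 0.200, 0.202 and 0.341 in the libraries labelled CM-RevDKO. The groups overlapped, with CM-RevDKO replicate 3 above control replicate 1. The mean log2 ratio was -1.44 ± 0.40 and -2.06 ± 0.44 (SD, n = 3; exact two-sided permutation p = 0.20, 0.20 adjusted over the 3 ratios).

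Gsk3b (ENSMUSG00000022812, chromosome 16, 38089001 to 38246084) encodes the beta form of glycogen synthase kinase 3. It stood at 8.37, 7.92 and 9.02 FPKM in the controls and at 7.01, 6.81 and 3.26 FPKM in the libraries labelled CM-RevDKO. The groups did not overlap, and CM-RevDKO replicate 3 stood well below the other pair of its group. Means were 8.44 ± 0.553 and 5.69 ± 2.11 FPKM (SD, n = 3), a difference of -0.55 on the log2 scale (SE 0.24, 95% interval -1.10 to 0.00, adjusted p = 0.302). Without CM-RevDKO replicate 3 the difference was -0.25 (SE 0.11, adjusted p = 0.294), and from that replicate alone it was -1.15 (SE 0.16, adjusted p = 0.0891). With the atrial covariate it was -0.87 (SE 0.37, adjusted p = 0.636). Among all genes tested, 10.5% lay lower without overlap. RefSeq places a lncRNA gene, BC031361, over the first 260 bases of Gsk3b, and a snoRNA gene over 132 bases inside it.

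Gsk3a, the paralog that shares most substrates of Gsk3b, was compared with it after its values were seen. It stood at 26.5, 30.8 and 29.4 FPKM in controls and at 29.2, 24.2 and 29.4 FPKM in the libraries labelled CM-RevDKO (adjusted p = 0.811), higher than Gsk3b in each of the 6. The ratio of Gsk3b to Gsk3a was 0.315, 0.257 and 0.307 in controls and 0.240, 0.282 and 0.111 in the libraries labelled CM-RevDKO. CM-RevDKO replicate 2 lay inside the control range and replicate 3 far below it. The log2 ratio differed by -0.58 (exact two-sided permutation p = 0.20, 0.20 adjusted over the 3 ratios), and by -0.17 without CM-RevDKO replicate 3.

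**Figure D3:**
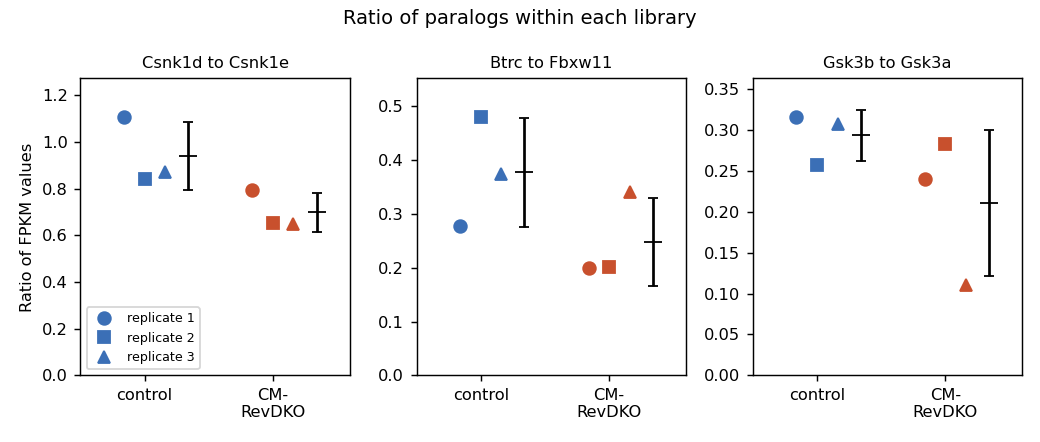
Ratio of FPKM values of related genes within each library (axes from 0), for controls (blue) and libraries labelled CM-RevDKO (red), with mean and SD in black and symbols for the replicate number. The ratio of Csnk1d to Csnk1e does not overlap between groups (0.843 to 1.11 against 0.650 to 0.793), whereas the other ratios overlap.

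FPKM is scaled to transcript length, so levels can be set in order across genes. In controls the order was Csnk1e, Csnk1d, Gsk3b, Fbxw11 and Btrc, at 17.8, 16.7, 8.44, 8.11 and 2.87 FPKM on average. The neighbours Csnk1e and Csnk1d, and Gsk3b and Fbxw11, did not differ beyond their SDs, while the steps from Csnk1d to Gsk3b and from Fbxw11 to Btrc were larger than the spread. In the libraries labelled CM-RevDKO the order was Csnk1e, Csnk1d, Fbxw11, Gsk3b and Btrc, at 23.2, 16.2, 12.1, 5.69 and 2.81 FPKM. There the ranges of Csnk1d and Fbxw11 met (14.4 to 18.1 and 8.26 to 14.9 FPKM), and CM-RevDKO replicate 3 brought Gsk3b, at 3.26 FPKM, close to Btrc. Among all genes of the table, Csnk1e was at the 82.2 percentile of mean level and Btrc at the 31.3 percentile.

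**Figure D4:**
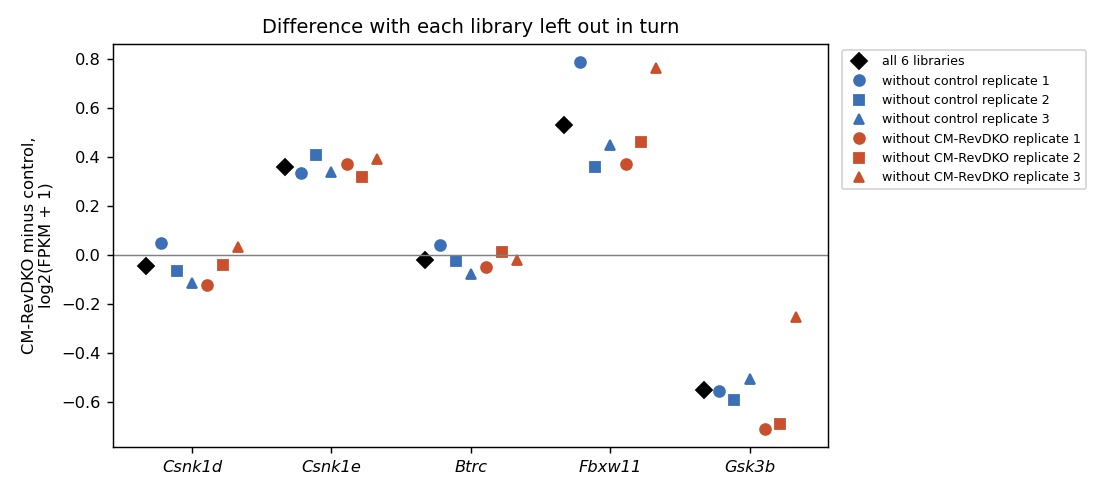
Difference between the groups on the scale of log2(FPKM + 1) for each of the 5 genes, with all 6 libraries (black diamonds) and with each library left out in turn (colour for the group and symbol for the replicate that was left out). Csnk1e stays between 0.32 and 0.41, Gsk3b moves to -0.25 without CM-RevDKO replicate 3, Fbxw11 ranges from 0.36 to 0.79, and Csnk1d and Btrc lie on both sides of 0.

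Genes with the most similar pattern were sought among 6567 or 6568 other genes averaging 5 FPKM or more, leaving out those with provisional, clone or small RNA names, by Pearson's r of log2(FPKM + 1) over the 6 libraries, as a description. The points share their libraries, and with 6 of them many genes reach a high r. For Csnk1e these were Slc25a4, the heart form of the ADP and ATP carrier (r = 0.99), the cardiac troponin T gene Tnnt2 (r = 0.99) and Cnih4 (r = 0.99). Tnnt2, which is also among the cardiomyocyte markers summed above, stood at 4793, 5095 and 4769 FPKM in controls. In the libraries labelled CM-RevDKO it stood at 6391, 6535 and 5969 FPKM (adjusted p = 0.0744). Slc25a4 and Cnih4 likewise did not pass the test (adjusted p = 0.103 and 0.142). For Csnk1d they were Siah1a, Gsn and Ppp3cc, for Btrc Abcg2, Arhgap31 and Plekha3, and for Fbxw11 Aplp2, Anxa5 and Ttc5, with r of 0.97 to 0.99. For Gsk3b they were Hdac3 (r = 0.99), the histone deacetylase that REV-ERB recruits with NCoR, then Jmjd8 and Pxmp3. Hdac3 stood at 20.5, 20.3 and 20.8 FPKM in controls and at 19.7, 19.3 and 17.2 FPKM in the libraries labelled CM-RevDKO (adjusted p = 0.532). CM-RevDKO replicate 3 was the lowest for both genes, which follows from choosing genes by their likeness to Gsk3b over these libraries.

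Beyond the 5 genes, 11 lists of the same pathway held 90 distinct genes that were tested, of 101 listed. Of these, 3 rose, among them the targeted gene Nr1d1, and 1 fell, or 4.44% against 2.5% of all genes tested. The groups did not overlap for 15 genes higher and 11 lower, 16.7% and 12.2% of the 90 against 12.6% and 10.5% of all genes. No gene passed in 9 of the 11 lists, and list medians ran from -0.08 to 0.09 on the log2 scale, beside 0.02 over all genes. All 4 calls lay in the lists of clock substrates and of other beta-TrCP substrates. The count of 4 was 2 without control replicate 2 or 3 or without CM-RevDKO replicate 2.

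The list of clock substrates held 10 genes, and whether these enzymes act on each of the proteins was not checked here. Of the 10 genes, 3 rose and 7 did not pass (median 0.09). This is 30% of the list against 2.5% of all genes tested. The list was chosen with earlier results of these data known, and the 3 include Nr1d1, a gene targeted for deletion in these mice. Arntl, which encodes BMAL1, was at most 0.295 FPKM in controls and at least 12.5 FPKM in the libraries labelled CM-RevDKO (log2 3.56, adjusted p = 1.72e-05). Nr1d1 rose too (log2 1.28, adjusted p = 0.0124), but its call ended with the atrial covariate (adjusted p = 0.293), from CM-RevDKO replicate 3 alone (adjusted p = 0.239), and when control replicate 2 and CM-RevDKO replicate 1 were both dropped (adjusted p = 0.0730). Clock stood at 3.05, 2.73 and 3.13 FPKM in controls and at 5.24, 7.40 and 7.30 FPKM in the libraries labelled CM-RevDKO (log2 0.93, adjusted p = 0.0186). The call of Clock ended without control replicate 1, 2 or 3, and also without CM-RevDKO replicate 2 or 3 (adjusted p 0.0523 to 0.0839), with the atrial covariate (adjusted p = 0.125) and from CM-RevDKO replicate 3 alone (adjusted p = 0.121). Of the 4 pathway calls only that of Arntl held with the atrial covariate (adjusted p = 0.00202). From CM-RevDKO replicate 3 alone the Arntl difference was 3.57. The atrial sums did not overlap between the groups, so this covariate goes with group and the SE grows. For Clock the difference was 1.19 (SE 0.20) with it and 0.93 (SE 0.14) without. A call that ends with the covariate therefore does not tell group and atrial content apart. No period or cryptochrome gene passed. The nearest were Cry1, at 3.51, 3.65 and 3.71 FPKM in controls and 5.26, 7.19 and 8.37 FPKM in the libraries labelled CM-RevDKO (log2 0.76, adjusted p = 0.0540), and Per3, at 13.9, 12.8 and 11.6 and then 5.97, 8.43 and 8.98 FPKM (log2 -0.66, adjusted p = 0.0800). The groups overlapped for neither. In this list 40% of genes lay higher and 20% lower without overlap, against 12.6% and 10.5% of all genes tested. Per1, which CK1 and beta-TrCP act on directly, stood at 17.1, 17.3 and 13.9 FPKM in controls and at 14.3, 11.6 and 11.4 FPKM in the libraries labelled CM-RevDKO (adjusted p = 0.239). Per2 did not pass either (adjusted p = 0.872). Cry1, Per1, Per2 and Per3 are outside the naming rule, picked with their values in view. RNA came from a single time of day, so level and phase of a rhythm cannot be told apart.

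None of 7 other casein kinase genes passed the test (3 with a positive and 4 with a negative difference, median -0.08). Csnk2b, the regulatory subunit of casein kinase 2, stood at 48.4, 52.3 and 48.0 FPKM in controls and at 41.3, 36.2 and 47.2 FPKM in the libraries labelled CM-RevDKO (adjusted p = 0.316). Csnk1g2, a membrane-bound casein kinase 1, stood at 36.2, 35.5 and 37.7 and then 45.4, 38.8 and 39.9 FPKM (adjusted p = 0.409). Neither overlapped between groups. Without overlap, 14.3% of the 7 lay higher and 14.3% lower, against 12.6% and 10.5% of all genes tested. Among 10 further kinases known to act on clock proteins, none passed (median -0.07). The smallest p belonged to Cdk9, the transcription elongation kinase, at 8.21 to 8.89 and 9.47 to 11.6 FPKM (adjusted p = 0.309), and then to Dyrk1a, which primes CRY2 for GSK3 beta, at 8.88 to 9.74 and 6.77 to 9.26 FPKM (adjusted p = 0.405). Of 7 phosphatase subunits that can oppose these kinases none passed, and 6 had a positive difference (median 0.07). Ppp2cb, a catalytic subunit of protein phosphatase 2A, stood at 14.7 to 17.6 and 18.7 to 19.4 FPKM (adjusted p = 0.416), and Ppp5c at 25.0 to 26.9 and 21.5 to 25.0 FPKM (adjusted p = 0.460).

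Of 12 other ubiquitin ligase genes for clock proteins, 10 were tested and none passed (7 positive and 3 negative, median 0.03). Mycbp2, a large ligase reported to act on REV-ERBα, stood at 11.2, 5.13 and 9.23 and then 6.08, 5.60 and 4.60 FPKM (adjusted p = 0.348). Control replicate 2 lay within the range of the libraries labelled CM-RevDKO, so the groups overlapped. Of 4 deubiquitinases none passed. Usp2, whose transcript is itself rhythmic in many tissues, had tight groups at 44.1, 47.1 and 44.1 and then 38.0, 37.5 and 37.0 FPKM (log2 -0.26, SE 0.08, adjusted p = 0.165). Usp14, a deubiquitinase of the proteasome, stood at 18.5 to 20.5 and 21.8 to 22.5 FPKM (adjusted p = 0.419).

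The remaining parts of the SCF machine also held no call, in 12 of 12 genes tested (median 0.00). Nedd8, the ubiquitin-like protein that activates cullins, stood at 86.0, 93.7 and 94.8 FPKM in controls and at 148, 129 and 116 FPKM in the libraries labelled CM-RevDKO (log2 0.51, SE 0.11, adjusted p = 0.0670). It passed without CM-RevDKO replicate 3 (adjusted p = 0.0457), and without any other single library it did not; with the atrial covariate the difference was 0.34 (adjusted p = 0.715). Cdc34, the ubiquitin-conjugating enzyme that works with SCF ligases, stood at 70.5, 81.5 and 77.1 and then 99.5, 88.9 and 96.5 FPKM (adjusted p = 0.153). The groups overlapped for neither gene. Of the 12 genes, 25% lay higher and 8.33% lower without overlap, against 12.6% and 10.5% of all genes tested. Of 5 other F-box genes with WD repeats, the family of the beta-TrCPs, none passed. Fbxw5 stood at 20.1 to 21.3 and 23.2 to 27.6 FPKM (adjusted p = 0.274), and Fbxw4 at 10.2 to 13.4 and 10.2 to 11.9 FPKM (adjusted p = 0.616).

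Genes that set the activity of GSK3 and CK1 were tested for 7 of 12 listed, and none passed. Akt1, the kinase that inhibits GSK3 in response to insulin, stood at 57.4, 64.2 and 69.3 FPKM in controls and at 36.7, 46.9 and 45.9 FPKM in the libraries labelled CM-RevDKO (log2 -0.55, SE 0.12, adjusted p = 0.0734). Its groups did not overlap, and with the atrial covariate the difference was -0.31 (adjusted p = 0.749). No other of the 7 lay without overlap, so 14.3% lay lower, against 10.5% of all genes tested. Akt2 stood at 42.4, 45.4 and 41.0 and then 33.3, 42.1 and 31.8 FPKM (adjusted p = 0.330). In the beta-catenin destruction complex, where GSK3 beta, CK1 and beta-TrCP also meet, 5 of 8 listed genes were tested and none passed. Axin2, a scaffold and a target of Wnt signalling, stood at 1.51, 2.17 and 1.83 and then 0.872, 1.47 and 0.674 FPKM (log2 -0.51, adjusted p = 0.231, and -0.29 with the atrial covariate), and beta-catenin itself, Ctnnb1, at 95.2 to 105 and 86.6 to 101 FPKM (adjusted p = 0.651).

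Of 13 tested genes whose proteins are other known substrates of beta-TrCP, 1 fell and none rose (median 0.00). Wee1, the kinase that holds back mitosis, fell from 7.01, 7.89 and 8.91 FPKM in controls to 4.08, 4.27 and 4.15 FPKM in the libraries labelled CM-RevDKO (log2 -0.78, SE 0.11, adjusted p = 0.0140). Its gene is also known as a clock target with E-boxes in its promoter, which was not searched here. Whether this bears on the fall was not tested. Leaving out control replicate 2, control replicate 3 or CM-RevDKO replicate 2 ended the call (adjusted p 0.0559 to 0.0626), as did the atrial covariate (adjusted p = 0.304), CM-RevDKO replicate 3 as the only library of its group (adjusted p = 0.253) and dropping control replicate 2 with CM-RevDKO replicate 1 (adjusted p = 0.116).

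**Figure D5:**
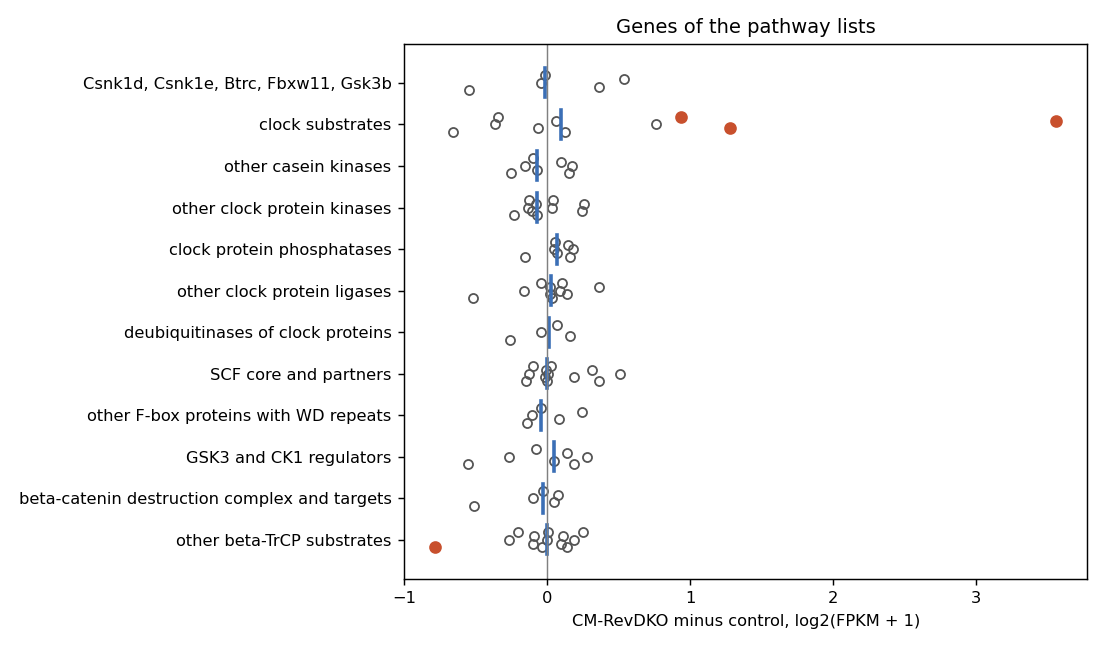
Difference between the groups on the scale of log2(FPKM + 1) for the 5 genes (top line) and each tested gene of the 11 pathway lists; filled red points passed the test, open points did not, and blue bars are list medians. The 4 filled points are Arntl, Nr1d1, Clock and Wee1, and list medians lie between -0.08 and 0.09.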

How the data were processed

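RNA was measured in 6 libraries; 24 further samples, from ChIP and Cut&Run, were not analysed here. For RNA the authors deposited 1 value per gene and library, read here as FPKM; the header names no unit and TPM is possible. Per the submitters' processing notes HISAT2, StringTie and mm10 were used, without versions given. Every gene of the table reaches 1 in at least 1 library. Depth is unknown: among 2202 to 2660 low genes compared in each of 15 library pairs, no log2 ratio (to 4 decimals) recurred in more than 4. No 2 columns were identical. No source used here says how reads shared by related genes such as Csnk1d and Csnk1e were assigned.

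Values were analysed as log2(FPKM + 1), which understates the change of low genes, for 13256 genes with a mean of at least 0.5, with limma 3.58.1 in R 4.3.3 (intensity trend, group as the only term). P-values are two-sided and adjusted by Benjamini-Hochberg over all genes tested, with a threshold of 0.05. They measure only the spread between these samples, which may be technical. Ratios were tested by exact permutation. The procedure was tested on simulated data in which genes varied independently, with no effect of library or atrial content. It was not tested under such effects. The members and lists were chosen with earlier results of these data known. Text names the 5 genes, the list members past the test (up to 5), or the 2 with the smallest p where none passed, and the 3 genes most alike each member. A gene that this rule names is not reported here. List genes were matched by symbol or Ensembl identifier, 3 of them under an older symbol. Alternatives changed the pseudocount, filter, scaling, variance model, libraries and covariates.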

Additional observations from a re-analysis of the deposited data

How the results depend on the processing

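The difference of Csnk1e stayed between 0.30 and 0.45 on the log2 scale over 17 alternatives, with adjusted p of 0.0723 to 0.588, and those of Fbxw11 (0.06 to 0.79) and Gsk3b (-1.15 to -0.25) kept their direction; none of the 3 passed under any. With each library left out, Csnk1d ranged from -0.12 to 0.049 and Btrc from -0.076 to 0.043, on both sides of 0 (0.049 and 0.043 without control replicate 1, 0.034 for Csnk1d without CM-RevDKO replicate 3 and 0.015 for Btrc without CM-RevDKO replicate 2). Btrc has no value with a mean of at least 5. The count of 332 genes was 120 to 322 with 1 library left out, 21 with CM-RevDKO replicate 3 as the only knockout library, 30 with the atrial covariate, and 105 when control replicate 2 was dropped together with CM-RevDKO replicate 1. The 4 pathway calls, an outcome added after seeing the data, became 2 to 5, 1, 1 and 2 in the same order. A lone library is assumed to vary as the controls do. Scaled without the mitochondrially encoded genes the median of all genes was -0.04, against 0.02. No label used here says that same-numbered libraries belong together. Their deviations correlated at -0.04, -0.06 and 0.09, and not every library correlated best with its own number. So few libraries cannot exclude a pairing. With the replicate block 115 genes and 2 pathway genes passed, and none of the 5 members did. The SE with the block was 0.09 for Csnk1d, against 0.13 without it, and 0.18 for Fbxw11, against 0.27. For Csnk1e it was 0.09 with and without the block, for Btrc 0.12 in both, and for Gsk3b 0.23 against 0.24. The atrial covariate differed between the groups without overlap, so its part and that of group cannot be fully told apart. The cause of these shifts was not tested. Depth is unknown, so its limit cannot be stated.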
